A study of Bos taurus with 6 samples.

Results

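The genes described here are 10 members of the bone morphogenetic protein (BMP) pathway, namely the ligands BMP2, BMP4 and BMP7, the type I receptor BMPR1A, the signal transducers SMAD1 and SMAD5, and the target genes ID1, ID2, ID3 and ID4. They were taken by symbol, and all 10 were found once in the table of raw counts, which holds 19163 genes, and once in the table of values that the authors call TPM. The cells were F7, a bovine embryonic stem cell (bESC) line from in vitro fertilised Holstein Friesian embryos, so every library came from a single line. F7 grown on mouse embryonic fibroblasts (MEFs) that had been treated with mitomycin C, which stops division but leaves the feeder cells alive, are named MC-F7. F7 grown on MEFs fixed with methanol, which kills the feeder cells, are named MT-F7, and the deposited design gives 15 passages for both groups, with 3 libraries each. Both groups were kept in a customised mTeSR1 base without its growth factors, to which FGF and the WNT pathway inhibitor IWR1 were added, with a ROCK inhibitor at passage. No BMP ligand or BMP inhibitor is named among the additions. The medium was refreshed every day for MC-F7 and every other day for MT-F7, so feeder type and feeding interval cannot be told apart. Before RNA extraction, dissociated cells were left on gelatin and the floating cells were collected.

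BMP ligands bind a complex of type I and type II serine/threonine kinase receptors, and the activated type I receptor phosphorylates SMAD1, SMAD5 and SMAD9, which enter the nucleus with SMAD4. The ID genes are the classical early targets of these SMADs. ID proteins have a helix-loop-helix but no DNA-binding region, and they hold the E proteins TCF3, TCF4 and TCF12 away from their partners, which restrains differentiation. In pluripotent cells BMP signalling acts according to context, supporting self-renewal of mouse embryonic stem cells together with LIF and driving extraembryonic or mesodermal fates in primed human cells, while in early ectoderm low BMP activity goes with neural fate.

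Depth ranged from 21958386 to 24933430 gene-assigned reads per library. Levels within a gene are given as counts per 1000000 reads after TMM scaling (CPM, mean ± SD, n = 3), and a difference is given as the log2 fold change of MT-F7 over MC-F7 with its standard error (SE). Both come from edgeR, whose quasi-likelihood test with Benjamini-Hochberg adjustment over 13001 tested genes gave every adjusted p, and an adjusted p under 0.05 is called a change. The labels do not give separate cultures for the 3 replicates, and the study describes technical replicates, so the SDs and p values may cover technical spread only. Among marker genes of pluripotent cells, POU5F1, NANOG, LIN28A, SALL4 and PRDM14 were tested, and POU5F1 was at 1196 ± 330 CPM in MC-F7 and 522 ± 35.6 CPM in MT-F7. POU5F1, NANOG and LIN28A were lower in MT-F7, as were 11.3% of all tested genes. SALL4 overlapped between the groups and was not called (log2 fold change 0.33, adjusted p = 0.29). The same held for PRDM14 (0.15, adjusted p = 0.67). The sum of the 5 genes, mostly POU5F1, was 949 to 1578 CPM in MC-F7 and 592 to 651 CPM in MT-F7. The part of this sum in the results was not tested. SOX2, LIN28B, TDGF1 and UTF1 were not analysed here. Mitochondrial genes took 16.3% to 28.3% of the counts, and the share was highest in replicate 3 of both groups.

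All 10 genes had enough reads to be tested. In MT-F7 the ligands BMP4 and BMP7 and all 4 ID genes were higher, while BMP2, BMPR1A, SMAD1 and SMAD5 did not pass the test. ID2 and ID4 had the widest differences, 6.23-fold and 5.88-fold, ahead of BMP7 (3.08-fold), BMP4 (1.92-fold), ID1 (1.79-fold) and ID3 (1.55-fold). Thus 6 of 10 genes rose and 0 fell, where 11.9% of all tested genes rose and 11.3% fell. The same 6 genes had groups that did not overlap, with MT-F7 on top, which was the case for 19.9% of all tested genes. MC-F7 was on top without overlap in 20.1%, and the groups were apart in either direction in 40.0%. The median log2 fold change of the 10 genes was 0.74, beside -0.0026 over all tested genes. BMP4, BMP7 and ID2 are named by the study among the genes that differed between the groups, so their direction is not independent evidence.

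**Figure D1:**
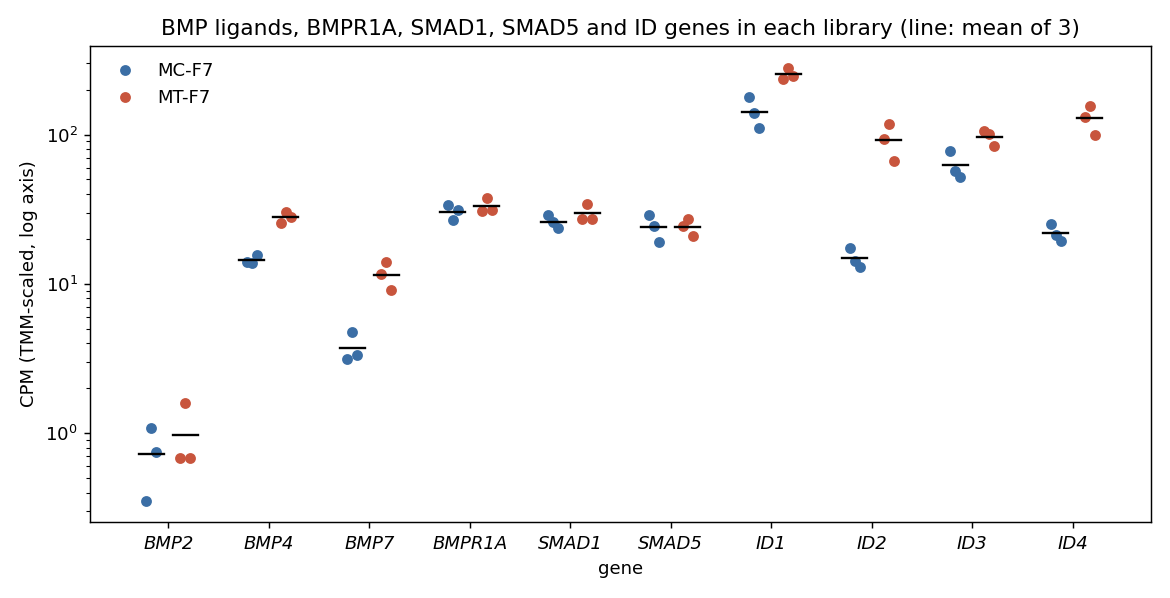
CPM on a log axis for each of the 10 genes, with 1 point per library (blue MC-F7, red MT-F7) and a line at the mean of 3 libraries. In BMP4, BMP7, ID1, ID2, ID3 and ID4 every red point lies above every blue point, and in the other genes the groups overlap.

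BMP4 was, per length, the most abundant of the 3 ligands in both groups. Its level was 14.1, 13.9 and 15.5 CPM in the MC-F7 libraries and 25.5, 30.4 and 27.9 CPM in the MT-F7 libraries. The spread within each group was small beside the gap between the groups. BMP4 (Entrez gene 407216) thus went from 14.5 ± 0.888 to 27.9 ± 2.49 CPM, a log2 fold change of 0.94 (SE 0.158, adjusted p = 9.4e-04), and it kept the call in each of the 6 fits that left out 1 library.

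BMP7, a ligand that often pairs with BMP2 or BMP4, had a lower per-length level than BMP4 and a higher log2 fold change. The MC-F7 libraries had 3.14, 4.77 and 3.32 CPM and the MT-F7 libraries 11.6, 14.0 and 9.09 CPM. The lowest MT-F7 library was well above the highest MC-F7 library, replicate 2. BMP7 (540595) had a log2 fold change of 1.62 (SE 0.240, adjusted p = 3.9e-04), from 3.74 ± 0.892 to 11.5 ± 2.45 CPM, and was also called in all 6 of those fits. In RefSeq the gene overlaps the microRNA gene MIR2307, which is counted as a gene of its own. SMAD1 overlaps MIR2284G, which is absent from the count table. How reads in these overlaps were assigned was not examined.

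BMP2, the close relative of BMP4, was near the limit of what could be measured, with 8, 26 and 16 reads in MC-F7 against 17, 41 and 16 reads in MT-F7. These are 0.354, 1.08 and 0.748 CPM against 0.677, 1.58 and 0.679 CPM. Replicate 2 was the highest library in both groups, and the groups overlapped. The log2 fold change of BMP2 (615037) was 0.43 with a 95% interval of -0.69 to 1.55 (adjusted p = 0.59), and it turned to -0.10 without MT-F7 replicate 2, so neither a rise nor a fall of this size was detectable at this depth.

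BMPR1A, the type I receptor for BMP2 and BMP4, was at 33.7, 26.6 and 31.1 CPM in MC-F7 and at 31.0, 37.5 and 31.3 CPM in MT-F7. SMAD1 had 29.0, 25.8 and 23.6 CPM in MC-F7 and 27.4, 34.5 and 27.3 CPM in MT-F7, with replicate 2 highest in MT-F7 as for BMPR1A. SMAD5 had 28.9, 24.5 and 19.0 CPM in MC-F7 and 24.4, 27.2 and 20.9 CPM in MT-F7, with replicate 3 lowest in both groups. The groups overlapped in these 3 genes, which carry the signal from the membrane to the nucleus. The 95% interval of the log2 fold change was -0.22 to 0.48 for BMPR1A (404101), -0.17 to 0.54 for SMAD1 (540488) and -0.40 to 0.40 for SMAD5 (768050). Their adjusted p values were 0.61, 0.45 and 0.99, and none of the 3 passed under any alternative that was run. A difference as wide as that of BMP4 lies outside all 3 intervals.

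ID2 (505025) was at 17.3, 14.2 and 13.0 CPM in the MC-F7 libraries and at 92.8, 118 and 66.4 CPM in the MT-F7 libraries. The lowest MT-F7 library, replicate 3, was still several times the highest MC-F7 library. The mean went from 14.8 ± 2.17 to 92.5 ± 25.9 CPM, a log2 fold change of 2.64 (SE 0.217, adjusted p = 4.2e-06). Of the 13001 tested genes, 0.738% had a higher log2 fold change.

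ID4 (100848012), which is known for its expression in neural progenitors, showed the same picture. It had 25.0, 21.3 and 19.3 CPM in MC-F7 and 131, 155 and 98.9 CPM in MT-F7, again without overlap and with replicate 3 lowest in MT-F7. Its log2 fold change was 2.56 (SE 0.193, adjusted p = 2.4e-06), from 21.9 ± 2.89 to 129 ± 28.3 CPM. ID2 and ID4 kept the call under every alternative, with log2 fold changes of 2.29 to 2.82 and of 2.40 to 2.71.

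ID1 (497011) was the ID gene with the most reads in every library. It had 178, 138 and 110.4 CPM in MC-F7 and 236, 281 and 246 CPM in MT-F7, and the groups did not overlap, although the MC-F7 libraries were widely spread. The log2 fold change was 0.84 (SE 0.183, adjusted p = 0.0054), from 142 ± 34.1 to 254 ± 23.4 CPM, and all 6 fits without 1 library gave a call.

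ID3 (538690) had the smallest difference of the 4 ID genes, with 77.2, 57.3 and 51.8 CPM in MC-F7 and 105, 100.4 and 83.5 CPM in MT-F7. MC-F7 replicate 1 came close to MT-F7 replicate 3. Its log2 fold change of 0.63 (SE 0.177, adjusted p = 0.020) was not called without MC-F7 replicate 2 (adjusted p = 0.11), without MC-F7 replicate 3 (0.054), without MT-F7 replicate 1 (0.088) or without MT-F7 replicate 2 (0.065), although it stayed between 0.52 and 0.82 in those 6 edgeR fits.

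**Figure D2:**
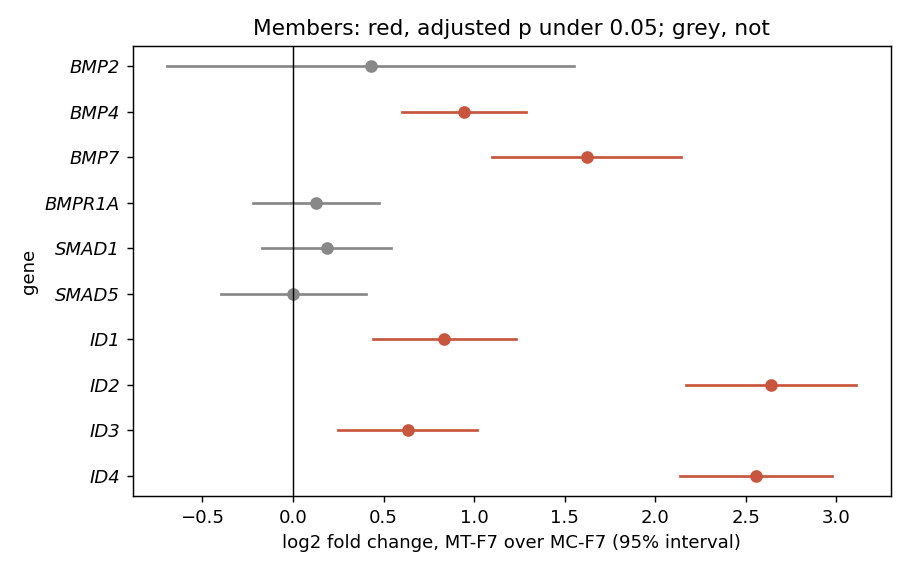
Log2 fold change of MT-F7 over MC-F7 for the 10 genes, with the 95% interval of the edgeR quasi-likelihood fit, in red where the adjusted p was under 0.05 and in grey where it was not. ID2 and ID4 lie above 2, BMP4 and ID1 near 1, and the intervals of BMP2, BMPR1A, SMAD1 and SMAD5 include 0.

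How ID2 and ID4 moved beside ID1 and ID3 was described by ratios within each library, in which sequencing depth cancels. The deposited TPM values were used, since they are divided by gene length and so allow different genes to be compared. The level of ID4 was 0.378, 0.414 and 0.471 times that of ID1 in the MC-F7 libraries and 1.50, 1.49 and 1.08 times in the MT-F7 libraries. By these values ID4 was below ID1 in every MC-F7 library and above it in every MT-F7 library. This crossing depends on the lengths used, which the study does not state. The deposited values give 0.0130 per read for ID4 and 0.00483 per read for ID1. In CPM, without division by length, ID4 was below ID1 in every library of both groups. The rise of the ratio from MC-F7 to MT-F7 does not depend on the lengths. The ratio of ID2 to ID3 went from 0.160 ± 0.0103 to 0.632 ± 0.133 in the same direction, that of ID2 to ID1 from 0.143 ± 0.0150 to 0.488 ± 0.109, and that of ID4 to ID3 from 0.472 ± 0.0369 to 1.76 ± 0.256. For these 4 ratios the groups did not overlap, and the exact permutation test gave p = 0.1 (two-sided, n = 3 against 3), the smallest value this design can give. All 4 set ID2 or ID4, the ID genes with the widest differences, over ID1 or ID3, and they share genes. They therefore restate that order and are not separate results. The ratios of ID2 to ID4 and of ID1 to ID3 were not examined. The ratio of BMP7 to BMP4, 0.227 ± 0.0631 in MC-F7 and 0.360 ± 0.0657 in MT-F7, overlapped between the groups (exact permutation p = 0.2). After adjustment over all 5 ratios the exact p was 0.125 for each of the ID ratios.

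Summed per length over the 4 ID genes, the level was 46.5, 38.6 and 29.5 in the MC-F7 libraries and 113, 133 and 87.8 in the MT-F7 libraries, in the deposited TPM units, which still hold library size. In MC-F7, ID1 made up 40.8% ± 1.81 of this sum, ID3 36.3% ± 0.996, ID4 17.1% ± 1.22 and ID2 5.81% ± 0.353. In MT-F7, ID4 had the highest share with 37.3% ± 2.53, followed by ID1 with 27.9% ± 3.50, ID3 with 21.4% ± 1.97 and ID2 with 13.4% ± 1.70. ID2 and ID4, the ID genes with the widest differences, together went from 22.9% ± 1.57 to 50.7% ± 4.20. The lowest MT-F7 library had 46.1% and the highest MC-F7 library 24.4%.

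**Figure D3:**
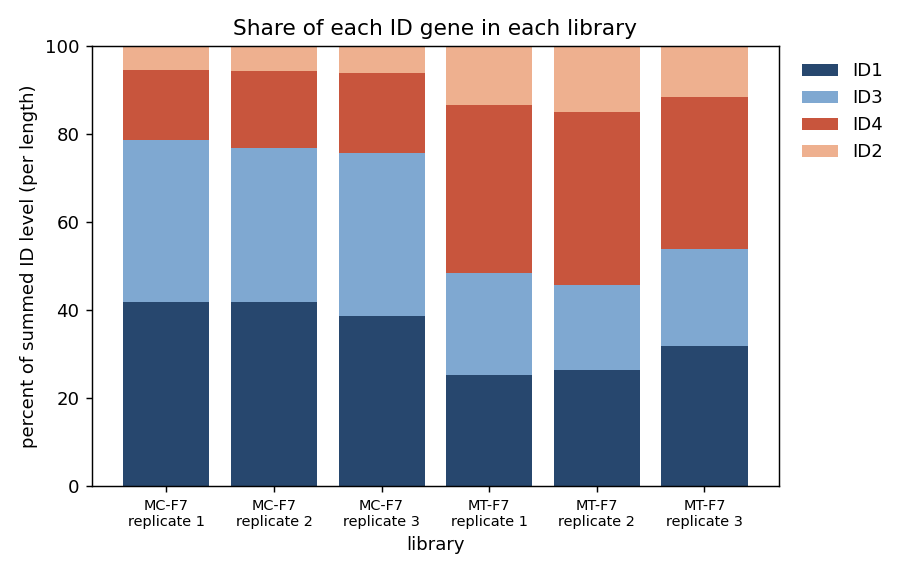
Share of ID1, ID3, ID4 and ID2 in the summed per-length level of the 4 ID genes, as stacked bars in percent for each of the 6 libraries. ID1 and ID3 fill most of each MC-F7 bar, and ID4 and ID2 take 46.1% to 54.4% of each MT-F7 bar.

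In MC-F7 the per-length order of the 10 genes ran ID1 (15.7 ± 4.05 TPM), ID3, ID4, ID2, BMPR1A, BMP4, SMAD1, SMAD5, BMP7 and BMP2 (0.0373 ± 0.0202 TPM). The libraries of ID1 overlapped with those of ID3, those of BMPR1A with BMP4 and those of BMP4 with SMAD1, and the other neighbours were apart. In MT-F7 the order ran ID4 (41.8 ± 11.0 TPM), ID1 (30.6 ± 3.92), ID3 (23.6 ± 3.71), ID2 (15.1 ± 4.87), BMP4 (3.19 ± 0.374), BMPR1A, SMAD1, BMP7, SMAD5 and BMP2. Here ID4 overlapped with ID1, ID3 with ID2, BMPR1A with SMAD1, and BMP7 with SMAD5. BMP4 stood apart from BMPR1A in MT-F7, whereas they were at 1.51 ± 0.0390 and 1.55 ± 0.144 TPM in MC-F7.

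The rest of the pathway was examined with 58 further genes grouped by role. Of these, 56 were in the count table, 37 had enough reads to be tested and 15 were called (23.2% of all tested genes were called), 11 higher and 4 lower in MT-F7. Their median log2 fold change was 0.17. Where only genes with at least 10 reads in every library were admitted, 28 were tested, 5 were higher and 4 were lower. BMP5, GREM1 and TBX3 had fewer than 10 reads in every MC-F7 library and entered the test through MT-F7 alone. BMPR1B and ATOH8 reached 10 reads in 1 MC-F7 library and NOG in 2, against 3 MT-F7 libraries for each. They too passed the filter only with the help of MT-F7, and such genes could hardly be called lower. CER1 was at 0 in every library, and BMP3, BMP6, BMP8A, BMP8B, GDF2, GDF6, GDF7, GDF9, HJV, SOST, BMPER, DLX3 and HEY1 had too few reads to be tested.

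Among the other ligands, 11 of 13 were too low to test, with BMP10, BMP15 and GDF5 at 0 in every library. BMP5 had 1 read over the MC-F7 libraries and 60 over the MT-F7 libraries, a depth-scaled ratio of 54.8 (95% exact interval 9.47 to 2201, counting error only, adjusted p = 8.0e-04 by edgeR). Even in MT-F7 its level was 0.806 ± 0.173 CPM. AMH, which signals through the same SMADs, was at 5.76 ± 1.94 and 5.32 ± 1.61 CPM (adjusted p = 0.82).

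Of 8 tested receptors and co-receptors, BMPR1B alone was called (12.5%, beside 23.2% of all tested genes). BMPR1B, the second BMP type I receptor, had 0.398, 0.373 and 0.561 CPM in MC-F7 and 2.31, 1.12 and 2.21 CPM in MT-F7. The log2 fold change was 2.07 (SE 0.443, adjusted p = 0.0048). The type II receptor BMPR2 had 39.9 ± 2.61 CPM in MC-F7 and 31.3 ± 1.67 CPM in MT-F7, without overlap but with an adjusted p of 0.10. The same held for ENG, with 8.25 ± 0.672 CPM in MC-F7 and 5.72 ± 1.31 CPM in MT-F7 (adjusted p = 0.10). The shared SMAD4 was at 61.6 ± 5.93 and 62.2 ± 8.97 CPM (adjusted p = 0.96), and SMURF1 and SMURF2, ubiquitin ligases for BMP SMADs, had adjusted p values of 0.77 and 0.75. SMAD9 was too low to test, with 2, 5 and 2 reads in MC-F7 against 12, 10 and 18 reads in MT-F7.

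The secreted antagonists and modulators moved both ways, with 5 of 13 tested genes higher and 3 lower. Over all tested genes the shares were 11.9% higher and 11.3% lower. Of the higher genes, NOG and GREM1 passed the filter only with the help of MT-F7, as given above. NOG, which encodes the BMP-binding antagonist Noggin, had 1.15, 0.249 and 0.655 CPM in MC-F7 and 4.50, 5.99 and 5.01 CPM in MT-F7 (log2 fold change 2.92, SE 0.410, adjusted p = 2.6e-04). FST encodes follistatin, which binds activins and some BMPs, and went from 19.1 ± 2.65 to 54.3 ± 5.98 CPM (log2 fold change 1.50, adjusted p = 4.3e-05). In neither gene did the groups overlap. GREM1, the BMP antagonist gremlin, had 1 read over the MC-F7 libraries and 68 over the MT-F7 libraries, a ratio of 62.1 (95% exact interval 10.8 to 2490, counting error only). CHRDL1, a chordin-like antagonist, had a log2 fold change of 1.04 (adjusted p = 0.0048), and TWSG1, which binds BMP together with chordin, one of 0.89 (adjusted p = 0.013).

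FSTL3, a follistatin-like protein, fell from 35.1 ± 3.29 to 15.5 ± 0.156 CPM, a log2 fold change of -1.18 (adjusted p = 1.6e-04). CHRD, which encodes chordin, had 25.0, 26.4 and 31.3 CPM in MC-F7 and 12.0, 13.3 and 23.5 CPM in MT-F7 (log2 fold change -0.76, adjusted p = 0.033), with MT-F7 replicate 3 close to MC-F7. SOSTDC1, a modulator of BMP and WNT ligands, fell from 12.3 ± 1.95 to 7.29 ± 1.93 CPM (adjusted p = 0.030). CHRD was not called without MC-F7 replicate 2 or 3 or MT-F7 replicate 1 or 2 (adjusted p 0.066 to 0.13), SOSTDC1 not without replicate 1 or 2 of MC-F7 or replicate 1 or 3 of MT-F7 (0.066 to 0.11), and TWSG1 not without replicate 2 of either group (0.054 to 0.065).

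The intracellular feedback inhibitors, themselves SMAD targets, went in opposite directions. SMAD6, which acts mainly on BMP receptors, was at 6.86, 6.67 and 7.15 CPM in MC-F7 and at 12.9, 13.5 and 13.5 CPM in MT-F7. This gave a log2 fold change of 0.95 (SE 0.172, adjusted p = 0.0017), with hardly any spread within the groups. SMAD7, which acts on both the TGF-beta and the BMP branch, was at 14.5, 14.4 and 15.8 CPM in MC-F7 and 11.6, 9.19 and 8.87 CPM in MT-F7. Its log2 fold change was -0.59 (SE 0.178, adjusted p = 0.030), and it was called only when MT-F7 replicate 1 was the library left out (adjusted p 0.051 to 0.11 in the other 5 fits). BAMBI, a decoy receptor, was low in both groups (adjusted p = 0.42).

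Among 8 other transcription factors known to respond to BMP, 5 were tested and 3 were called, all higher in MT-F7 (11.9% of all tested genes were higher). As given above, TBX3 and ATOH8 passed the filter only with the help of MT-F7 and could hardly be called lower. DLX5, a homeobox factor of the neural plate border and skeleton, had 3.45, 2.74 and 2.71 CPM in MC-F7 and 43.8, 61.1 and 38.5 CPM in MT-F7. Its log2 fold change of 4.01 (SE 0.225, adjusted p = 5.9e-07) was wider than that of any ID gene. TBX3 had a log2 fold change of 3.62 at 1.67 ± 0.338 CPM in MT-F7 (adjusted p = 0.0012). ATOH8 had 1.86 (adjusted p = 0.012) and was not called without MC-F7 replicate 2 or MT-F7 replicate 1 (adjusted p 0.054 to 0.064). MSX2 went from 1.35 ± 0.453 to 2.99 ± 1.24 CPM with overlapping groups (adjusted p = 0.054), and MSX1 was at 0.693 ± 0.249 and 0.783 ± 0.246 CPM (adjusted p = 0.83). TBX2 was too low to test, with 2 reads over the MC-F7 libraries and 39 over the MT-F7 libraries (ratio 17.8, 95% exact interval 4.61 to 152, counting error only). The study lists BMP5, BMPR1B, FST, MSX2 and TBX2 among the genes that differed between the groups, so they too are not independent evidence of direction.

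None of the 3 E proteins, the binding partners of ID proteins, was called by edgeR at the adjusted threshold. TCF3 had 122 ± 1.99 CPM in MC-F7 and 137 ± 13.6 CPM in MT-F7 (log2 fold change 0.16, adjusted p = 0.46). The study, by contrast, reports TCF3 as significantly higher in MT-F7. TCF12 (0.64, adjusted p = 0.079) and TCF4 (0.49, adjusted p = 0.15) were higher in every MT-F7 library without passing the test.

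**Figure D4:**
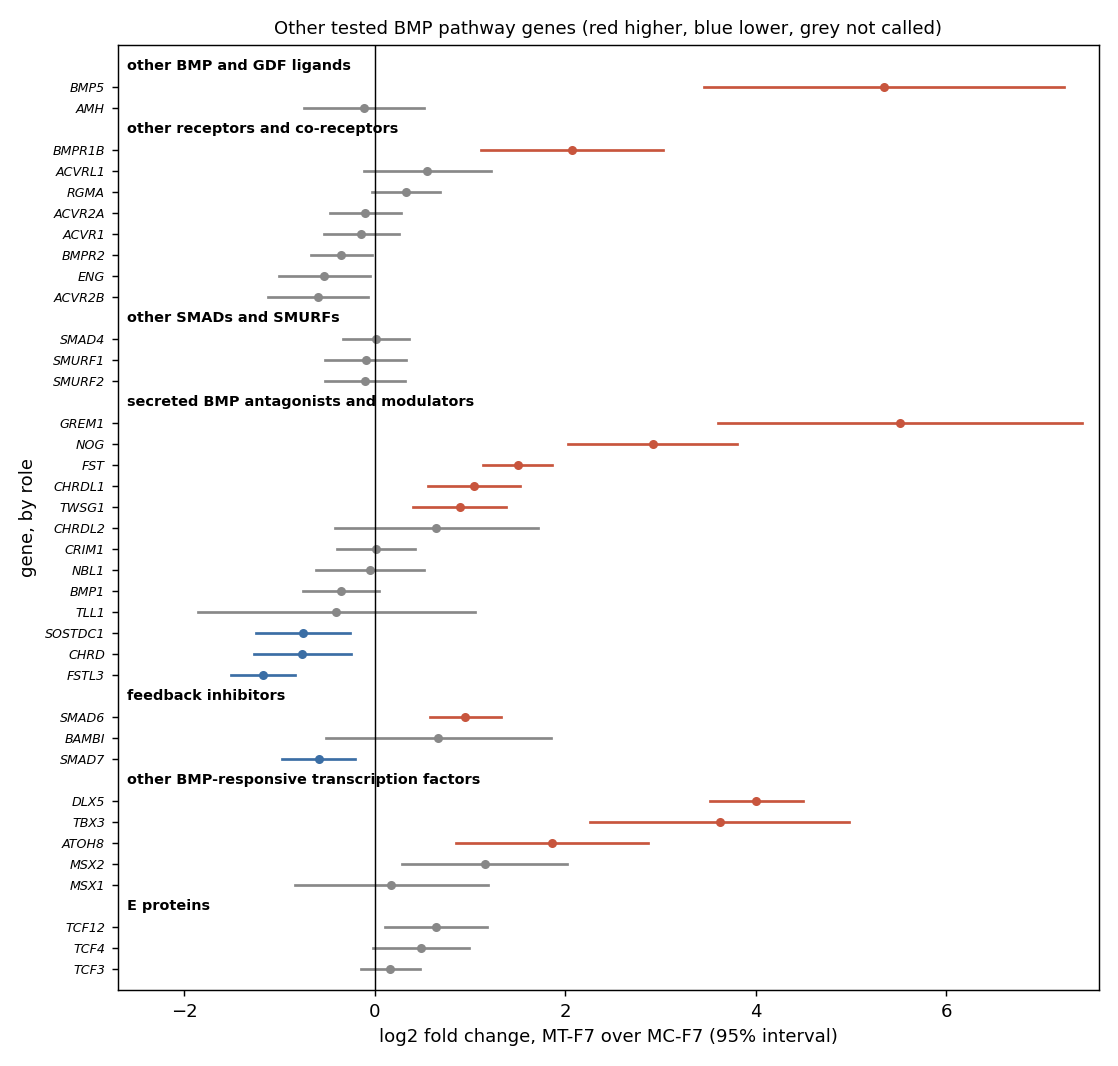
Log2 fold change of MT-F7 over MC-F7 with its 95% interval for the 37 other tested BMP pathway genes, grouped by role, in red where higher, blue where lower and grey where the adjusted p was not under 0.05. SMAD4, SMURF1 and SMURF2 lie close to 0, and the antagonists spread from -1.18 for FSTL3 to 5.52 for GREM1.

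Neural ectoderm markers were higher in the same libraries as the ID genes, BMP4 and BMP7. In bulk RNA, fewer cells of a type and less RNA per cell cannot be told apart. Over all tested genes, 11.9% were higher in MT-F7 and 11.3% were lower. Of 8 neural ectoderm markers, 5 were in the count table, and all 4 tested (PAX6, SIX3, RAX and LHX2) were higher in MT-F7. Their summed level with HES5 was 120 to 144 CPM in the MC-F7 libraries and 648 to 779 CPM in the MT-F7 libraries, and its part in the ID2, ID4 and DLX5 values was not tested. Of 15 fibroblast markers, the feeder cell type, 14 were tested, 5 were higher (COL3A1, COL5A1, PDGFRB, POSTN and VIM) and TWIST2 was lower. COL1A1, COL1A2, THY1, PDGFRA, DCN, LUM, TWIST1 and S100A4 were tested and not called. The sum of the 15 markers, mostly VIM, was 1430 to 1875 CPM in MC-F7 and 2223 to 3527 CPM in MT-F7. FAP was at 0 in every MT-F7 library. The study reports a higher alignment rate to the bovine genome for MT-F7 than for MC-F7. It proposes that fixed feeders reduced contamination by feeder cells. From higher matrix gene and BMP4 expression in MT-F7, it also proposes that some MT-F7 cells became feeder-like, which was not tested here. Reads from mouse feeder cells that aligned to bovine genes cannot be separated in these counts, and their part was not tested.

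The trophectoderm factors CDX2 and HAND1 were at 0 in all 6 libraries, and GATA3 had 0 to 7 reads. Over all tested genes, 11.3% were lower in MT-F7. Of 5 tested trophectoderm markers, 3 were lower in MT-F7 (GATA2, KRT8 and KRT18), and TFAP2A and TFAP2C were not called. The sum of the 9 markers was 1828 to 2834 CPM in MC-F7 and 680 to 793 CPM in MT-F7. This sum was almost wholly the keratins KRT8 (1431 ± 340 and 554 ± 48.2 CPM) and KRT18 (859 ± 167 and 193 ± 12.5 CPM), so it says little about the other markers. Among 8 mesendoderm markers GATA4 was at 0 in every library, TBXT had 1 read in all, and the 2 tested genes, EOMES and FOXA2, were lower in MT-F7. FOXA2 reached 10 reads in 3 MC-F7 and 2 MT-F7 libraries, and it too passed the filter only with the help of MC-F7. The sum of the 8 mesendoderm markers was 10.7 to 12.0 CPM in MC-F7 and 4.06 to 4.46 CPM in MT-F7. The part of these markers in the BMP and ID values was not tested.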

How the data were processed

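RNA-seq data of MC-F7 and MT-F7, with 3 libraries in each group, were used. The authors filtered paired-end reads, aligned them with HISAT2 2.0.5 to the Ensembl Bos taurus genome (the build is not given in the sources used here) and counted them per gene with featureCounts 1.5.0-p3. They deposited raw counts per Entrez gene, and a table of values that the authors call TPM, which are counts per length on a scale shared by all libraries (the ratio to the counts was equal within 0.1% in 9681 of 9682 genes with at least 50 counts per library). Symbols came from RefSeq's ARS-UCD2.0 gene table. No coordinates or sequences are given.

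Genes were kept by filterByExpr (minimum count 10, total 15) and tested with TMM and the quasi-likelihood test in edgeR 4.0.16 under R 4.3.3 (two-sided, no block, adjusted p under 0.05 over 13001 genes). Limits on low counts were 3 reads per library. Symbols absent from the count table were not analysed here. Deviations of libraries with the same replicate number correlated at 0.188, 0.0893 and 0.544 across genes. Pairs within a group differed by 25.4 to 126 times the sampling noise (chi-square per degree of freedom), so all were separate libraries. The steps were tested on simulated data. Alternatives tried were DESeq2 1.42.0, RLE factors, scaling by library size, 2 other filters, limma 3.58.1 on the TPM, a replicate block, libraries left out, mitochondrial genes removed and a fold rule (absolute log2 fold change over 1 and unadjusted p under 0.05). Named were the 10 members, every called gene of the pathway lists, and pathway list genes at 0 or too low to test. Uncalled pathway genes and single markers were named after their values were seen. The members and lists were chosen with earlier results of these data known.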

Additional observations from a re-analysis of the deposited data

How the results depend on the processing

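Over the alternatives, ID2, ID4 and BMP7 were called in each that could be computed, and BMP4 and ID1 in all but a fold rule (absolute log2 fold change over 1 and unadjusted p under 0.05), by which 3 of the 10 members passed. ID3 was called in 12 of 19, and was lost in 4 fits without 1 library, by the fold rule and in limma on log2(TPM + 1) over all genes (adjusted p = 0.052 as deposited and rescaled). Without each library in turn, the number of members called was 5 to 6, that of the other pathway genes 11 to 17, and that of all genes 1914 (without MC-F7 replicate 2) to 3093. The log2 fold change ranged from -0.15 to 0.15 for SMAD5 and from -0.10 to 0.84 for BMP2. SMAD5 turned to -0.15 without MC-F7 replicate 3, -0.0090 without MT-F7 replicate 1, -0.087 without MT-F7 replicate 2 and -0.032 without replicate 3 of both groups, and BMP2 to -0.10 without MT-F7 replicate 2. The count of all genes, 3016 by edgeR, was 4674 with the replicate block, 1399 with limma at a mean TPM of at least 1 and 1694 by the fold rule. Replicate numbers were used as a block only here, since the study describes no block. With the block 6 members were called, as without it, and 21 other pathway genes (13 higher, 8 lower) in place of 15 (11 higher, 4 lower). Of the other pathway genes, 9 were called with at least 10 counts in every library (5 higher, 4 lower) and 4 with limma at a mean TPM of at least 1, where 28 and 12 genes were tested. Scaling moved the median of all genes from -0.0026 to 0.013 at most. Against 1553 genes higher and 1463 lower in edgeR, limma gave 1547 and 820 on log2(TPM + 1), 1581 and 845 on log2(TPM + 0.1), 948 and 451 at a mean TPM of at least 1, and 1421 and 960 with each library rescaled to 1000000. The cause of this shift was not tested. By CPM in place of per-length values, the shares in MC-F7 and MT-F7 were 58.8% and 44.8% for ID1, 6.22% and 16.0% for ID2, 25.8% and 16.9% for ID3 and 9.17% and 22.3% for ID4, with ID1 highest in both groups because gene length is then not divided out. Replicate 3 of both groups had the most mitochondrial reads, and without it the log2 fold changes of ID2 and ID4 were 2.76 and 2.65. The TPM rescaling and the removal of both replicate 3 libraries were chosen after seeing the data. BMP2 and other genes near 20 reads allowed only large differences to be detected.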
